A study of Homo sapiens with 4 samples.

Results

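Connexins are the proteins that build gap junctions, the channels through which neighbouring cells share ions and small molecules. Connexin subunits assemble into a hemichannel, and hemichannels of apposed cells dock to form the complete channel. In the mammary gland connexin 26, the product of *GJB2*, belongs mainly to luminal epithelial cells, connexin 43, the product of *GJA1*, is known best from basal and myoepithelial cells, and the beta connexins *GJB5* and *GJB6* are known from stratified epithelia such as skin. Connexin 45, encoded by *GJC1*, is a gamma connexin first studied in heart and smooth muscle.

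The connexin gap junction genes described here were chosen by their symbols as *GJB2*, *GJB5*, *GJB6*, *GJA1* and *GJC1*. The deposited table held 16811 genes, and 4 of the 5 named connexins were among them. *GJB6* was not analysed here. Poly(A)-selected RNA was sequenced from MCF12A, a line of human mammary epithelium that does not form tumours, in 2 wild-type libraries (genotype label Wild type) and in 2 edited libraries (genotype label C1orf132 KO). In the edited cells the p2 promoter of the long noncoding RNA gene *C1orf132*, the host gene of miR-29b2 and miR-29c, had been excised with CRISPR/Cas9. All 4 libraries came from cells kept in the same medium with horse serum, EGF, hydrocortisone, cholera toxin and insulin. The edited cells were grown from sorted single cells, and the labels do not say how many colonies the 2 edited libraries represent, so that a difference between colonies and an effect of the deletion cannot be told apart. The study calls its replicates biological without saying how they were grown, and p-values measure the spread between these libraries only. *C1orf132* itself was not analysed here, and the grouping therefore depends on the labels alone.

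Each value is a normalised expression signal per gene, as deposited by the authors. How it was normalised is not given in the sources used here. Division by transcript length was inferred from the values and is not stated in the sources used here. Totals ranged from 1444644 to 1655437 per library. limma was applied to log2(value + 1) of all 16811 genes (edited against wild type), with a call at a Benjamini-Hochberg adjusted p under 0.05. Of these genes, 795 (4.73%) were called, 571 (3.40%) lower and 224 (1.33%) higher in edited cells. The depth was estimated from the smallest values of genes with a single transcript. One read on a transcript of 1 kb was worth about 0.105 to 0.126 depending on the library, and a step of about 0.5 times that size scored higher in 3 of the 4 libraries, so that the true number of reads may be 2 times as large. Estimated reads are approximate and cover counting error only.

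Genes that define the labelled cell type were in the table, but the levels of several differed between the groups. *CDH1* was 3.89 and 1.54 in edited against 150 and 123 in wild-type libraries. *EPCAM* was 9.93 and 5.29 against 57.6 and 27.8. The mean of *KRT8* (371 against 185) was higher in edited cells. *KRT18* overlapped between groups, at 266 and 296 in edited against 275 and 82.2 in wild-type libraries (limma, adjusted p = 0.340). *KRT14* was 80.3 and 190 against 585 and 1880 and was not called (limma, adjusted p = 0.0635). All 8 mammary epithelial markers were in the table, and their summed signal was 4886 and 5683 in the edited libraries against 10933 and 20156 in the wild-type libraries. *KRT5* and *KRT17* made up most of these sums, and neither was called (limma, adjusted p of 0.187 and 0.0628). Of these 8 markers, 2 were called lower and 1 higher in edited cells, against 3.40% and 1.33% of all genes. These were *CDH1* and *TP63* (lower) and *KRT8* (higher), with an adjusted p from limma of 0.00757, 0.0396 and 0.0450. The study had named *CDH1* from these cells, and its call is therefore not independent evidence. An unadjusted p under 0.05 was found for 6 of the 8 in limma, against 29.2% of all genes. None of 5 endothelial markers was in the table. Of 8 fibroblast markers, *COL1A1* and *DCN* were in the table, and their means differed in opposite directions. *COL1A1* was called lower, at 3.19 and 5.58 in edited cells against 15.6 and 28.1 in wild-type cells (limma, adjusted p = 0.0490). *DCN* was 15.1 and 105 against 7.42 and 1.09 and did not pass (limma, adjusted p = 0.119), and the sum of both was 18.3 and 111 against 23.0 and 29.2. Of 5 immune markers only *CD14* was in the table (8.98 to 15.1 over the 4 libraries). In bulk RNA, fewer cells of a type and less RNA per cell cannot be told apart.

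The 2 reference promoters printed here belong to the connexin that fell and to the alpha connexin it is set against. They are the 250 bases upstream of the annotated starts in RefSeq on GRCh38.p14, the build that the submitters' processing notes call hg38. The RefSeq promoter table matched 3 of the 5 connexins (*GJB2*, *GJB6* and *GJA1*). Capitals mark every match, on either strand, to the GC box bound by SP1 and SP3 (GGGCGG), the E2 box bound by ZEB1 and ZEB2 (CACCTG), the AP-1 motif bound by JUN and FOS (TGANTCA) or the TATA box (TATAAA).
GJB2, chr13:20192939-20193188, minus strand: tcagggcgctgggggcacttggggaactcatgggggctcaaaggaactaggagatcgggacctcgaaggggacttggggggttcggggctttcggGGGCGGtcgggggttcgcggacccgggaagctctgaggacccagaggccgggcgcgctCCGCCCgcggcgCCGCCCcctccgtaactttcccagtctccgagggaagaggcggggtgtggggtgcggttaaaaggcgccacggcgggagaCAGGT
GJA1, chr6:121435396-121435645, plus strand: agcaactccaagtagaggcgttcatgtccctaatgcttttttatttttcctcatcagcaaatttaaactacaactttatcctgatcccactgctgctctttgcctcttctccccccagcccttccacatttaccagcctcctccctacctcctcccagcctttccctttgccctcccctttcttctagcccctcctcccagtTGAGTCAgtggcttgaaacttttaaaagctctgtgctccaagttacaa

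The *GJB2* promoter had a GC content of 70.0% with 25 CpG dinucleotides, and the *GJA1* promoter 48.0% with 1 CpG dinucleotide. Over all 35116 promoters of the RefSeq table the median GC content was 58.0%. In the window of 300 bases that also takes in the first 50 transcribed bases, *GJB2* held 3 GC boxes, from -155 to -150, -97 to -92 and -85 to -80 relative to its start. It held 1 E2 box on the other strand from -5 to 1, whose last base is the first transcribed base and is not printed. *GJA1* held 1 AP-1 motif from -48 to -42. Among all promoters in windows of the same length, 45.0% held a GC box, 20.6% an E2 box, 7.71% an AP-1 motif and 11.5% a TATA box, so that GC boxes and E2 boxes are common. Such matches are letters in a reference sequence, and binding was not measured in these cells.

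*GJB2* (connexin 26) lies on chromosome 13 from 20187470 to 20192938 and was barely detected in the edited cells. The signal of edited replicate 1 was 0.0274 and that of edited replicate 2 was 0.293, whereas wild-type replicate 1 had 10.3 and wild-type replicate 2 had 12.5. Both edited libraries were far below both wild-type libraries, and the groups did not overlap. A non-overlapping decrease alone was common, since 5078 of all genes (30.2%) showed one, and 5285 (31.4%) a non-overlapping increase, which none of the 4 connexins did. On its canonical transcript of 2290 bases about 1 (0.541 before rounding) and 6 reads were estimated in the edited libraries, against 186 and 247 in the wild-type libraries. With the smaller step these would be 1 and 13 against 373 and 495 reads. The log2 fold change of value + 1 was -3.42 (standard error 0.26, 95% interval -4.08 to -2.76, adjusted p = 0.0104 from limma).

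Expressed as levels, the mean of *GJB2* was 0.160 ± 0.188 in the edited group and 11.4 ± 1.57 in the wild-type group (SD, n = 2 each). The mean wild-type level was 70.9 times the edited one, but this ratio came to 38.7 when edited replicate 1 was omitted and to 415 when edited replicate 2 was. From the estimated reads of the larger step, pooled by group (7 edited against 433 wild-type) the ratio was 67.8, with an exact 95% counting interval of 32.6 to 170. That interval takes the rounded reads as counts and leaves out the spread between libraries, and the ratio of 415 lies outside it. In wild-type cells *GJB2* was a gene of middling level, above 45.1% of the genes in the table. In edited cells it was above 0.738% of them. By unadjusted p it ranked 52 of 16811 genes in the limma test.

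The call of *GJB2* did not survive every omission of a library. Its adjusted p was 0.0631 with edited replicate 1 omitted, 0.107 with wild-type replicate 1 omitted and 0.178 with wild-type replicate 2 omitted (limma), and the call held only without edited replicate 2 (adjusted p = 0.0303). The log2 fold change stayed between -3.58 and -3.25 in these fits. The same omissions left 52, 0 and 0 genes of the whole table called, and 248 without edited replicate 2.

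**Figure D1:**
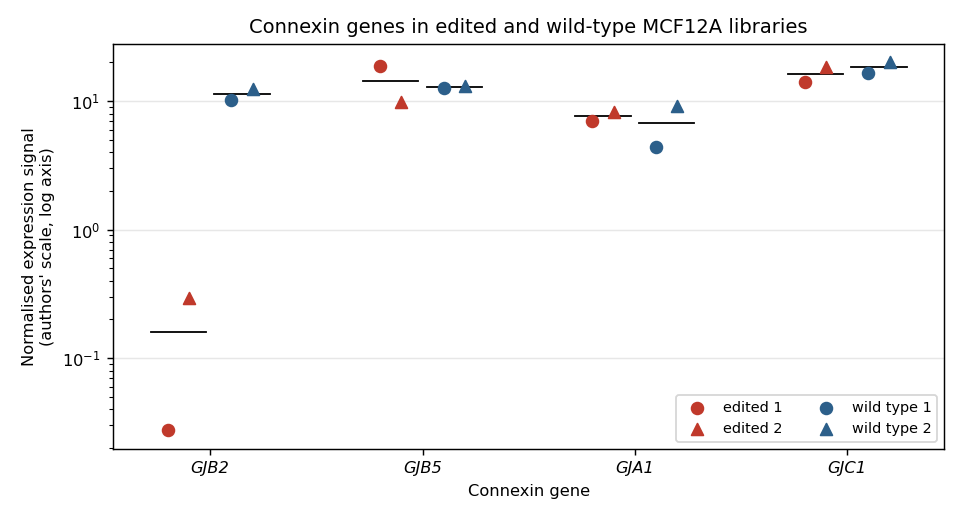
Normalised expression signal (log axis) of the 4 connexin genes, 1 point per library (circles replicate 1, triangles replicate 2, red edited, blue wild type) with group means as lines. *GJB2* falls from 10.3 and 12.5 in the wild-type libraries to 0.0274 and 0.293 in the edited ones, while the points of *GJB5*, *GJA1* and *GJC1* overlap between groups.

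*GJB5* is the other beta connexin, encoded on chromosome 1 from 34755047 to 34758512. Edited replicate 1 had a signal of 18.8 and edited replicate 2 one of 9.91, and wild-type replicates 1 and 2 had 12.7 and 13.2. The edited libraries enclosed the wild-type ones, which lay close together. The means were 14.4 ± 6.31 and 12.9 ± 0.290 (SD, n = 2 each). The log2 fold change was 0.08 (standard error 0.32, 95% interval -0.74 to 0.90, adjusted p = 0.901 from limma). Its sign turned without edited replicate 1 (-0.35), and with equal library totals (-0.03).

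*GJA1* (connexin 43) is the alpha connexin of the set, on chromosome 6 from 121435646 to 121449727. The edited libraries had a signal of 7.03 and 8.26, and wild-type replicates 1 and 2 had 4.39 and 9.16. Here the wild-type libraries differed most and enclosed the edited ones. The means were 7.64 ± 0.865 in edited and 6.78 ± 3.37 in wild-type cells (SD, n = 2 each). The log2 fold change was 0.22 (standard error 0.35, 95% interval -0.67 to 1.11, adjusted p = 0.720 from limma), and it was -0.24 when wild-type replicate 1 was omitted and 0.68 when wild-type replicate 2 was. RefSeq lists a pseudogene copy, *GJA1P1*, on chromosome 5, and how reads shared with it were counted is not given in the sources used here.

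*GJC1* (connexin 45), on chromosome 17 from 44794104 to 44831364, had a signal of 14.0 and 18.4 in edited cells, where wild-type replicates 1 and 2 had 16.5 and 20.0. The groups overlapped, with means of 16.2 ± 3.11 and 18.3 ± 2.44 (SD, n = 2 each). With about 928 to 1353 estimated reads per library on a transcript of 7692 bases, it was the best covered of the 4 genes. The log2 fold change was -0.17 (standard error 0.23, 95% interval -0.75 to 0.40, adjusted p = 0.661 from limma), and it was 0.01 without edited replicate 1.

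Of the 4 connexins, 1 was therefore called lower, none higher and 3 did not pass the test, against 3.40% of all genes called lower. The median log2 fold change of the 4 was -0.05, and that of all genes 0.01. For the 3 that did not pass, the lower limits of the intervals were -0.75 to -0.67 and the upper limits 0.40 to 1.11. Decreases as well as increases of such size remain possible, and a missed threshold does not show equal levels.

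The beta connexins were contrasted with *GJA1* and *GJC1* within each library. The mean log2(value + 1) of *GJB2* and *GJB5*, less that of *GJA1* and *GJC1*, came to -1.28 for edited replicate 1, -1.83 for edited replicate 2, 0.35 for wild-type replicate 1 and -0.08 for wild-type replicate 2. This contrast was thus lower in both edited libraries, by 1.69 on average (a difference of -2.84 with a pseudocount of 0.1 and -0.79 with one of 5), and it is given with no test because the genes were chosen with results known. The beta connexins did not share it. *GJB2* less *GJA1* went from 1.06 and 0.41 in the wild-type libraries to -2.97 and -2.84 in the edited libraries. *GJB2* less *GJC1* went from -0.64 in both wild-type libraries to -3.87 and -3.91 in the edited libraries. *GJB5* less *GJA1* was 1.35 and 0.48 in wild-type and 1.30 and 0.24 in edited libraries, and so overlapped between groups. *GJB5* less *GJC1* was -0.35 and -0.57 in wild-type and 0.40 and -0.83 in edited libraries, with the edited libraries again on both sides.

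The labels do not say whether the libraries kept the strand. None of the neighbours described below overlapped *GJB2*, *GJB5* or *GJC1* in the RefSeq annotation. Overlap with other genes, such as those not matched to RefSeq, and overlap with *GJA1* are not described here.

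**Figure D2:**
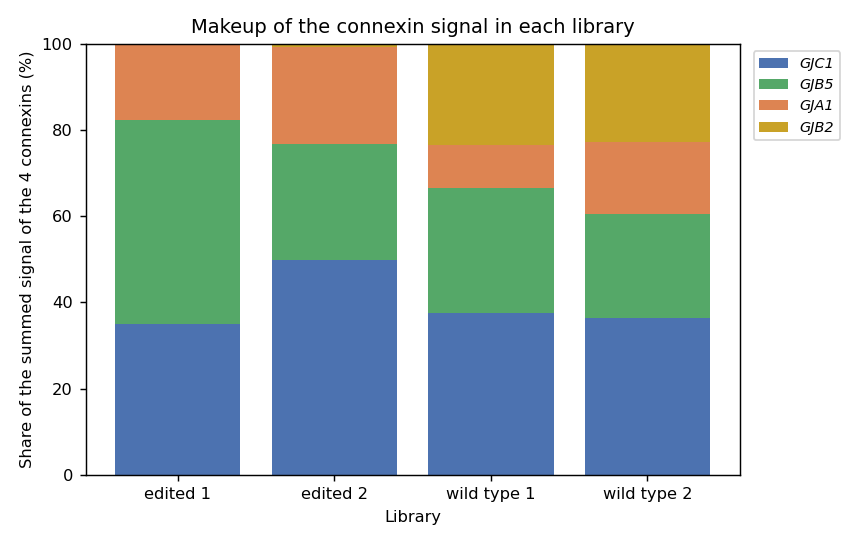
Share of each connexin in the summed signal of *GJB2*, *GJB5*, *GJA1* and *GJC1*, in percent, 1 bar per library. *GJB2* takes 23.4% and 22.8% of the wild-type bars and 0.0687% and 0.797% of the edited bars.

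Levels of different connexins were compared within a library on the inference that the signal is scaled for transcript length. *GJC1* (14.0 to 20.0) and *GJB5* (9.91 to 18.8) were the highest of the 4, and their levels overlapped across the libraries. In 3 libraries *GJC1* was the higher of them, and in edited replicate 1 it was *GJB5*. *GJA1* (4.39 to 9.16) lay below both in every library. In wild-type cells *GJB2* stood just under *GJB5* and above *GJA1*, and in both edited libraries it was the lowest of the 4. The summed signal of the 4 genes was 39.9 and 36.8 in edited cells, against 43.9 and 54.8 in wild-type cells. The share of *GJB2* in it averaged 23.1% in wild-type and 0.433% in edited cells. That of *GJB5* averaged 26.5% and 37.1%, with 47.2% in edited replicate 1 and 26.9% in edited replicate 2.

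*GJB2* was next set beside the listed genes around it on chromosome 13. *CRYL1*, which encodes a crystallin-like enzyme and begins 211 kb away, was called lower as well, at 6.27 and 8.58 in edited and 20.3 and 21.9 in wild-type libraries (log2 fold change -1.40, standard error 0.22, adjusted p = 0.0408 from limma). *ZMYM2*, a zinc finger gene 98.4 kb on the other side, was 53.2 and 59.8 in edited and 87.9 and 96.0 in wild-type libraries (-0.69, adjusted p = 0.0790). The other 4 neighbours, *PSPC1*, *ZMYM5*, *IFT88* and *IL17D*, did not pass the test, with log2 fold changes of -0.41 to 0.64. The 224 matched chromosome 13 genes that averaged 1 or more had a median log2 fold change of -0.24, against 0.01 for the 16232 such genes of the table, and 10 of them (4.46%) were called lower, against 3.47% of those 16232 genes and 4.96% on chromosome 1. The decrease of *GJB2* was larger than that of any of these 6 neighbours. The part that the shift of the chromosome has in it was not tested.

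**Figure D3:**
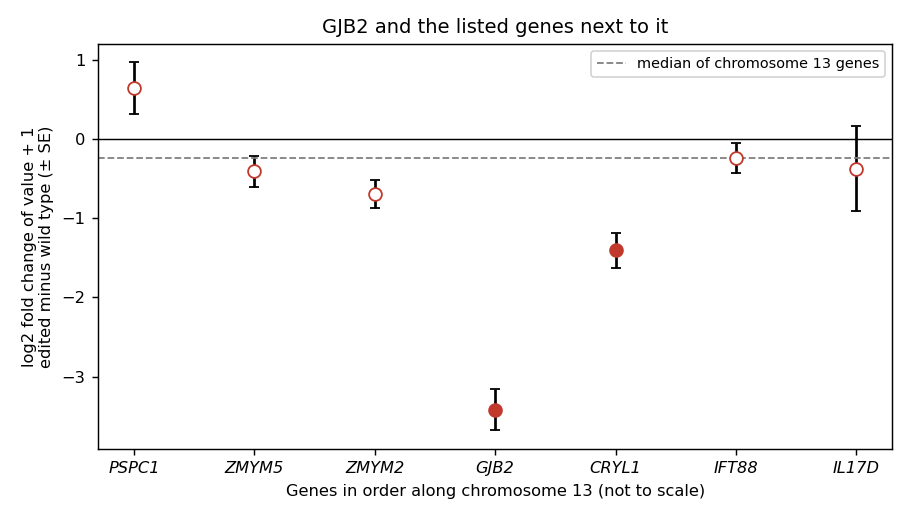
Log2 fold change of value + 1 (edited minus wild type, ± standard error) of *GJB2* and the 3 listed genes on each side, in order along chromosome 13 and not to scale. Filled points pass an adjusted p of 0.05 in limma. *GJB2* (-3.42) and *CRYL1* (-1.40) are filled, and the dashed line marks the chromosome's median of -0.24.

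None of the 6 listed neighbours of *GJA1*, the 6 of *GJC1* and the 3 described for *GJB5* passed an adjusted p of 0.05 in limma, and 2 of them (*EFTUD2* and *PKIB*) had an unadjusted p under 0.05, a share below the 29.2% of all genes. Beside *GJC1*, *EFTUD2*, a spliceosome GTPase 18.6 kb away, was 297 and 249 in edited and 187 and 137 in wild-type libraries (limma, log2 fold change 0.76 with an adjusted p of 0.105). Beside *GJA1*, the nearest listed gene, *TBC1D32*, had a log2 fold change of -0.05 and *PKIB*, an inhibitor of protein kinase A, one of -0.91 (limma, adjusted p of 0.912 and 0.153). The 3 listed genes before *GJB5*, *ZSCAN20*, *PHC2* and *RN7SKP16*, lie more than 1253 kb from it and had log2 fold changes of -0.38, 0.83 and 0.50.

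Genes that act with connexins were described from lists. Pannexins, which form single-membrane channels without docking, were represented by 2 of 3 genes and neither passed the test (*PANX1* -0.13 and *PANX2* 0.31 on the log2 scale). Of 10 scaffold, trafficking and turnover partners, 9 were matched, of which 0 passed an adjusted p of 0.05 in limma and 1 (*DBN1*) had an unadjusted p under 0.05, as 4909 of all genes (29.2%) had. *TJP1* (ZO-1), the main partner of the connexin 43 tail, overlapped between groups at 20.3 and 23.5 against 20.0 and 31.7 (-0.20, adjusted p = 0.674). *DBN1* (drebrin), an actin-binding partner of connexin 43, was 206 and 289 in edited and 138 and 92.7 in wild-type libraries, without passing the test (1.10, adjusted p = 0.0816). *CAV1* and *NEDD4*, which bind and ubiquitinate connexin 43 respectively, had values of 0.16 and -0.14. The median of these 9 genes was 0.08.

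Of 10 kinases that phosphorylate connexin 43, all were in the table and 0 passed an adjusted p of 0.05 in limma, while 2 had an unadjusted p under 0.05, a share below the 29.2% of all genes. These were *MAPK3* (ERK1), at 73.4 and 83.3 in edited and 147 and 127 in wild-type libraries (limma, log2 fold change -0.80 with an adjusted p of 0.0699), and *PRKCD*, a protein kinase C (-0.65, adjusted p = 0.126). *MAPK3* passed with equal library totals, quantile and cyclic loess scaling (limma, adjusted p of 0.0460, 0.0477 and 0.0432) and had an adjusted p of 0.0668 to 0.259 in the other fits. *SRC*, a tyrosine kinase, had a value of -0.07, and the median of the 10 kinases was -0.14.

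Of 10 transcription factors tied to connexin promoters, 9 were in the table, 1 was called higher and none lower, against 1.33% and 3.40% of all genes. An unadjusted p under 0.05 was found for 5 of the 9 (*SP1*, *JUN*, *TBX3*, *ZEB1* and *ZEB2*), against 29.2% of all genes. *ZEB1*, a zinc finger repressor of epithelial genes that binds E2 boxes, was 5.83 and 6.80 in edited and 0.333 and 0.927 in wild-type libraries (limma, log2 fold change 2.19 with an adjusted p of 0.0307). This call was lost with a pseudocount of 0.1, with the replicate number as a block and on omission of any 1 library (limma, adjusted p of 0.0502, 0.0633 and 0.0833 to 0.182), while the log2 fold change stayed between 1.92 and 2.45 in the omissions. *ZEB2*, its paralogue, was 2.21 and 4.36 against 0.299 and 0.456, and missed the threshold (1.59, adjusted p = 0.0604). *SP1* and *SP3*, which bind GC boxes, had values of -0.56 and -0.40 (limma, adjusted p of 0.153 and 0.249). *TFAP2A* and *TFAP2C*, AP-2 factors of epithelia, had values of 0.03 and -0.42 without passing. *JUN* (-0.60, adjusted p = 0.126) and *FOS* (-0.73, adjusted p = 0.534) form AP-1, and the edited libraries differed widely in *FOS* (6.63 and 30.5). *TBX3*, a T-box repressor, was 6.25 and 6.92 in edited and 3.44 and 3.16 in wild-type libraries (0.82, adjusted p = 0.0861). The study had named *ZEB1* and *GJB2* from these cells, and their counts are therefore not independent evidence.

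**Figure D4:**
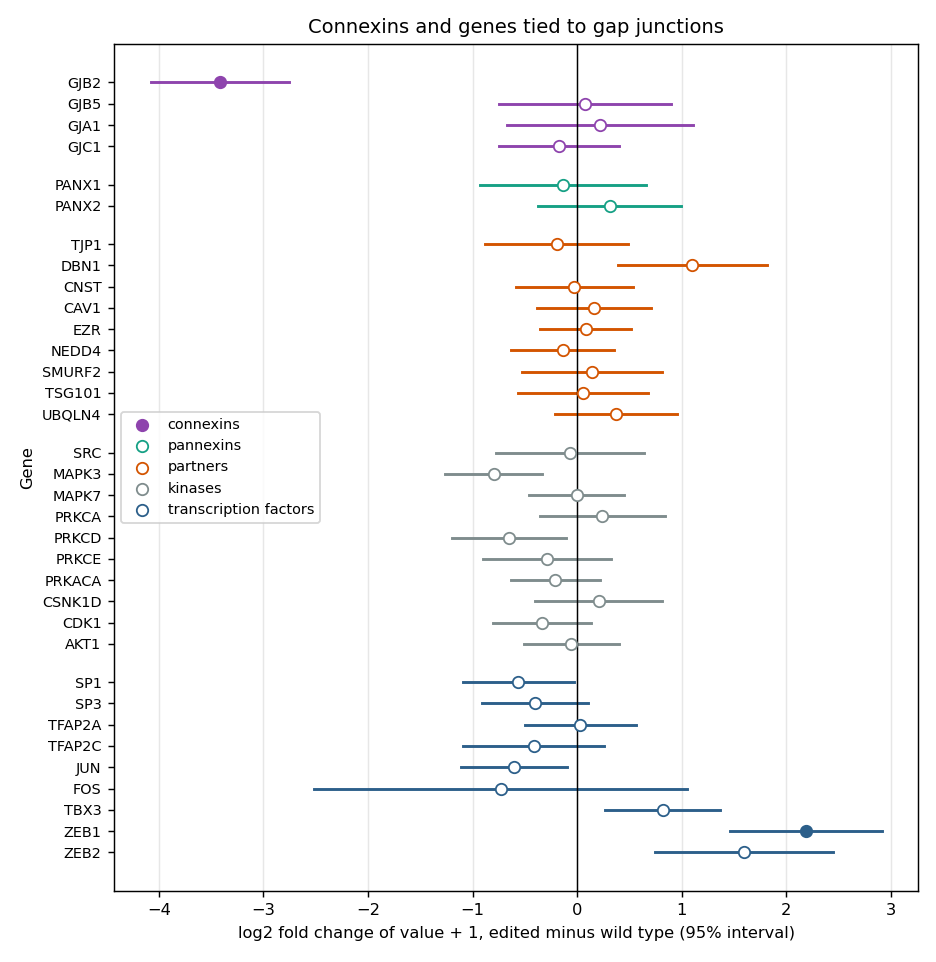
Log2 fold change of value + 1 (edited minus wild type, x axis) with 95% intervals from limma for the 4 connexins, 2 pannexins, 9 partners, 10 kinases and 9 transcription factors. Filled points pass an adjusted p of 0.05, and these are *GJB2* and *ZEB1*.

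The edited locus encodes the precursors of miR-29b2 and miR-29c, and connexin transcripts were searched for their seed match. Both mature sequences are shown from RefSeq (GRCh38.p14) with the seed, bases 2 to 8, in capitals. They share that seed.
hsa-miR-29c-3p, chr1:207801865-207801886, minus strand: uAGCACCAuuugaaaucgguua
hsa-miR-29b-3p, chr1:207802450-207802472, minus strand: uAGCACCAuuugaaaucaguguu

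In the canonical transcripts of GENCODE version 44 (mapped to GRCh37, sequence only), the seed match TGGTGCT stood once in the 3′ untranslated region of *GJC1*. The letters were not found in those of *GJB2* (1431 bases), *GJB5* (360 bases) or *GJA1* (1731 bases). The match is shown with 11 bases on each side and itself in capitals, at base 3916 of 6179.
GJC1: ctgtgatgcttTGGTGCTctttatcacag

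Among the 11833 genes of the table with an annotated 3′ untranslated region (median 1297 bases), 16.3% held the match. *GJC1*, with a match, had a log2 fold change of -0.17 and did not pass the test. *GJB2*, the connexin that was called, held no match. Whether miR-29 acts on any of these transcripts was not tested.

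Finally, the genes with the profile most like each connexin over the 4 libraries were found by the Euclidean distance of centred log2(value + 1), among 16231 other genes that averaged 1 or more. Nearest to *GJB2* was *SEMA4A*, a class 4 semaphorin, at a distance of 0.135, with 0.302 and 0.494 in edited and 13.3 and 14.6 in wild-type libraries. It was followed by *PTAFR*, the receptor of platelet-activating factor, at 0.2003 (1.55 and 1.86 in edited, 24.6 and 26.5 in wild-type libraries), and by *SLC52A3*, a riboflavin transporter, at 0.265 (0.472 and 0.843 against 11.8 and 17.1). Nearest to *GJC1* were *NOTCH2* (0.0319), *CFAP54* (0.0366) and *IKBKB* (0.0415). The distances of the nearest genes of *GJB5* ranged from 0.0551 to 0.0999 and those of *GJA1* from 0.0702 to 0.0827. With 4 libraries in 2 groups such likeness is a description of these libraries only.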

How the data were processed

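RNA-seq libraries of edited and wild-type MCF12A cells (2 each) had been made with poly(A) selection and sequenced as single-end reads of 75 bases. The sample titles gave each library its group and number. The authors deposited 1 value per gene and library, a normalised expression signal that, as inferred from the values, was scaled for transcript length. The submitters' processing notes name HISAT2, Salmon and hg38; the counting, annotation and normalisation are not given in the sources used here. The members and gene lists were chosen with earlier results of these data known.

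The test was limma 3.58.1 (lmFit and eBayes with trend, under R 4.3.3) on log2(value + 1), with no filter on low values, so that each connexin was tested in 1 fit. The study's methods give 0.05 as the level of significance, and its threshold of 0.001 for the RNA-seq was an alternative. That threshold called 0 genes in this limma fit, which need not be the test to which the study applied it. An exact permutation test of 2 against 2 libraries cannot go below p = 0.333. The test was checked on simulated data with independent noise for each gene. Those data held no difference between colonies or libraries, so the check cannot show how reliable the calls in these cells are. The plan had counted *GJB6* among the beta connexins, which became *GJB2* and *GJB5*.

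The depth was read from 789 single-transcript genes longer than 300 bases, by the step that best made value times length whole. As the values did not come out as whole reads, no count model was used to test the genes. Only the counting interval of the *GJB2* ratio took rounded reads as counts. Positions were taken from RefSeq on GRCh38.p14, which matched 13294 of 16811 genes, and transcripts from GENCODE version 44 (sequence only). *CCN3* was not matched to a single row. Some genes of the lists and some neighbours are not reported here, and the list counts leave them out. Named genes were the 5 members, genes of the lists, up to 3 listed neighbours on each side, and the 3 nearest profiles. Python 3.11.15, numpy 2.4.6, pandas 2.3.3, scipy 1.17.1 and matplotlib 3.10.9 were used.

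Same-numbered libraries did not deviate together (Pearson's r across 16811 genes -0.09, and -0.14 across the 9590 with a mean of at least 10), so the number was not used as a block. Alternatives in the pseudocount, filter, scaling, variance trend, block and threshold were computed, as were fits that omitted 1 library.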

Additional observations from a re-analysis of the deposited data

How the results depend on the processing

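The crossed pairing and the robust variance estimate were chosen after seeing the data. The call of *GJB2* held under the pseudocounts, the filter at a mean of 1, the scalings, no variance trend, both blocks and the robust estimate (adjusted p from 0.00882 to 0.0391, limma), with the replicate block at -3.42 and adjusted p = 0.0391. At the threshold of 0.001 it was lost (-3.42, 0 connexins called). Its log2 fold change was -5.67 with a pseudocount of 0.1 and -1.66 with 5. Leaving out 1 library gave 0 to 1 connexins called and -3.58 to -3.25 for *GJB2*, -0.35 to 0.51 for *GJB5*, -0.24 to 0.68 for *GJA1* and -0.36 to 0.01 for *GJC1*, so that the signs of *GJB5* (without edited replicate 1, -0.35), *GJA1* (without wild-type replicate 1, -0.24) and *GJC1* (without edited replicate 1, 0.015) turned. *GJB5* was also at -0.034 with equal library totals, where the median of all genes moved from 0.01 to -0.09. A lone library of a group was assumed to vary like the others. With a filter at a mean of 10, *GJB2* and *GJA1* were not tested.

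Over all genes, 795 calls (571 lower) became 517 with a pseudocount of 0.1, 125 (108 lower) with the replicate block and 0 (0 lower) at 0.001, and 0 to 248 (0 to 220 lower) with a library left out. Same-numbered libraries share only a number, and with 2 pairs their pairing could not be judged further. The crossed pairing called 625 genes. Of the pathway lists 1 gene, *ZEB1*, was called, but 0 with a pseudocount of 0.1, a filter at a mean of 10 (where it was not tested), the replicate block or the threshold of 0.001, 2 (with *MAPK3*) with equal totals, quantile or cyclic loess scaling, and 0 to 0 with a library left out. The contrast of beta connexins with *GJA1* and *GJC1* was -2.84 and -0.79 with pseudocounts of 0.1 and 5, and -1.97 to -1.42 with a library left out. The cause of these shifts was not tested. The few estimated reads of *GJB2* in edited libraries limit its ratio.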
